A study of Mus musculus with 3 samples.

Results

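Short chromatin domains, of 250 kb or less, were described in a Hi-C domain map of the mouse embryonic limb bud. Hi-C joins pieces of chromatin that meet in the nucleus and counts the joined pairs by sequencing. The tissue was micro-dissected fore- and hindlimb buds of WT (wild-type) embryos at stage E11.5, made into 3 libraries of 1 group. The libraries were technical replicates of pooled tissue, with 8 embryos by the protocol text and 10 by the design text, so all values describe 1 pool. Each library also carries a cell type entry of G4 ESC that goes against its source name of limb bud, and Hi-C domains hold no marker expression by which the entry could be checked. No condition was compared with another. The data were 1 table of 4124 domains in the mm9 build, given for the libraries together. No replicate error can therefore be attached to any value, and the depth of contacts per domain is unknown.

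The short domains were selected on their length, the distance between the domain's deposited edges. They numbered 761, or 18.5% of all domains. Together they spanned 147 Mb, which is 6.63% of the sequence in domains. They were compared with the 2022 domains above 250 kb and up to 500 kb, called medium domains here. Edges lay on a grid of 25 kb, so the short domains fell into 9 length steps from 50 to 250 kb. The table also numbers each domain's first and last bin of 10 kb. The difference of these bin numbers ran from 4 to 24 among short domains, with a median of 19, against 26 to 50 among medium domains. The 163 domains of 250 kb, just inside the limit, had a median imbalance score of 0.346, and 34.4% of them were in class 1. The 211 domains of 275 kb, just outside it, had a median imbalance score of 0.318, and 34.1% of them were in class 1.

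Contact domains, often called TADs, are stretches of chromatin whose parts meet each other more often than they meet the flanking sequence. They are thought to form when the ring complex cohesin reels in chromatin until it is stopped, commonly at sites bound by the zinc finger protein CTCF. Where loop extrusion is held at one end only, the contact map shows a line along one side of the domain, an architectural stripe. In the developing limb, domains of this kind hold the regulatory elements that act on patterning genes. TopDom, the method named for this table, places boundaries where contact between the flanking windows of bins reaches a local low, and it can leave stretches of sequence in no domain. The authors' imbalance, imbalance difference and cosine scores describe each domain, and a random forest gave each a probability. Domains with a probability of 0.5 or more are in class 1, taken as the stripe class, and the others in class 0. No source used here states the formulas of the scores, which carry the authors' unit and serve only to compare domains of this table. In the whole table no class 1 domain had an imbalance score between 0.2 and 0.429, so class and imbalance are not independent measures.

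Short domains were not uniform. The 61 domains of 50 to 100 kb scored high and were mostly in class 1, while the 700 domains of 125 to 250 kb scored lower than medium domains. The median imbalance score was 0.999 in the 11 domains of 50 kb, 0.855 in the 16 of 75 kb and 0.580 in the 34 of 100 kb. It was 0.274 in the 45 domains of 125 kb and reached its lowest, 0.191, in the 88 of 150 kb. It then stood at 0.256, 0.239 and 0.283 at 175, 200 and 225 kb, and at 0.346 at 250 kb. Among the 10 length steps of medium domains the median stayed between 0.318 and 0.408. The scores within a step were wide. The quartiles were 0.196 and 1.64 at 50 kb and 0.0877 and 0.430 at 150 kb. The 50 to 100 kb domains as a set had a median of 0.721 (quartiles 0.215 and 1.21), and the longer short domains one of 0.275 (0.121 and 0.498).

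**Figure D1:**
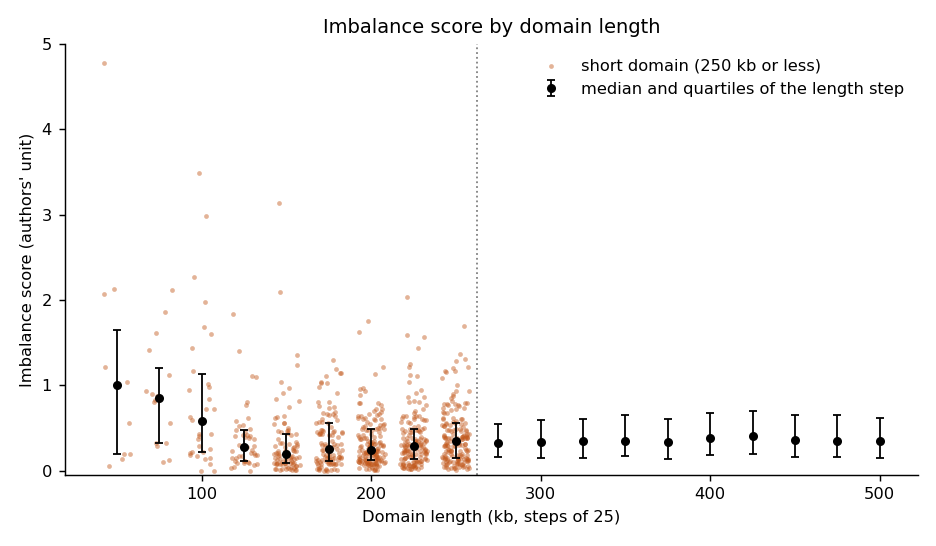
Imbalance score (vertical axis, authors' unit, linear) against domain length in steps of 25 kb (horizontal axis). Small points are single short domains, spread sideways for visibility, black points and bars are the median and quartiles of each step, and the dotted line marks the upper limit for short domains. The 2 domains with an infinite score are not drawn. Medians fall from 0.999 at 50 kb to 0.191 at 150 kb and lie between 0.318 and 0.408 in the medium steps.

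The share of class 1 followed the same course. It was 63.6% at 50 kb (7 of 11, 95% Wilson interval 35.4 to 84.8%), 68.8% at 75 kb (11 of 16, 44.4 to 85.8%) and 50.0% at 100 kb (17 of 34, 34.1 to 65.9%). At 150 kb it was 21.6% (19 of 88, 14.3 to 31.3%). From 175 to 225 kb it lay between 27.6 and 28.6%. Wilson intervals here count domains and cover counting error only, and those of the 3 shortest steps are wide because the steps hold few domains. Taken as sets, 57.4% of the domains of 50 to 100 kb were in class 1 (35 of 61, interval 44.9 to 69.0%), against 29.0% of those of 125 to 250 kb (203 of 700, 25.8 to 32.5%). The split at 100 kb was made after the values by step were known and was not tested. Among all 4124 domains class 1 was called in 35.1%.

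All short domains together held 238 class 1 domains of 761, or 31.3% (28.1 to 34.7%), and medium domains 774 of 2022, or 38.3% (36.2 to 40.4%). To ask whether such a difference recurs, it was computed within each of the 19 chromosomes, the only blocks in which the comparison could be repeated. The class 1 share of short domains was lower on 15 chromosomes and higher on 4 (exact two-sided sign test over chromosomes, p = 0.0192, adjusted p = 0.0231). The difference of -7.00 percentage points (95% Newcombe interval -10.8 to -3.03) grew to -9.28 without the domains of 50 to 100 kb and to -10.6 without domains at a gap, and shrank to -3.69 with both sets chosen on tuned length, and all 3 were called (exact sign tests, adjusted p = 0.00664, 0.00885 and 0.0329). By the same exact test it lost the call against all longer domains (-4.71 points, adjusted p = 0.0954), against domains of 250 to 350 kb (-6.11, adjusted p = 0.20) and with short domains taken up to 200 kb (-6.93, adjusted p = 0.251) or 300 kb (-5.78, adjusted p = 0.0848). Choosing on tuned length, here and below, changed the members and gave 1308 short and 1688 medium domains.

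Within class 1, short domains taken as a set had a median imbalance score near that of medium domains and fewer high probabilities. The set joins 2 unlike length ranges. The median imbalance score was 0.718 in the 238 short class 1 domains and 0.713 in the 774 medium ones. The probability reached 0.9 or more in 83 of the short class 1 domains, 34.9% (29.1 to 41.1%), and in 348 of the medium ones, 45% (41.5 to 48.5%). Of class 1 domains of all lengths, 46.1% reached it. The 2 length ranges lay on opposite sides of medium domains in both measures. In the 35 class 1 domains of 50 to 100 kb the median imbalance score was 1.01. In the 203 above 100 kb and up to 250 kb it was 0.665. A probability of 0.9 or more was reached by 18 of the 35, 51.4% (35.6 to 67.0%), an interval that includes the share of medium domains. Of the 203, 65 reached it, 32.0% (26.0 to 38.7%). Of all short domains, 10.9% had such a probability, against 17.2% of medium and 16.2% of all domains. The share in short domains was lower than in medium domains on 17 of 19 chromosomes (exact sign test, adjusted p = 0.00146). Class 1 domains with an imbalance score under 0.2 numbered 23 among short and 45 among medium domains, or 3.02% (2.02 to 4.49%) and 2.23% (1.67 to 2.96%) of each set. Direction, recorded as TRUE or FALSE for each domain with no statement of which side it names, was nearly even. It was TRUE in 383 of 761 short domains, 50.3% (46.8 to 53.9%), and in 123 of the 238 in class 1, 51.7% (45.4 to 58.0%).

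**Figure D2:**
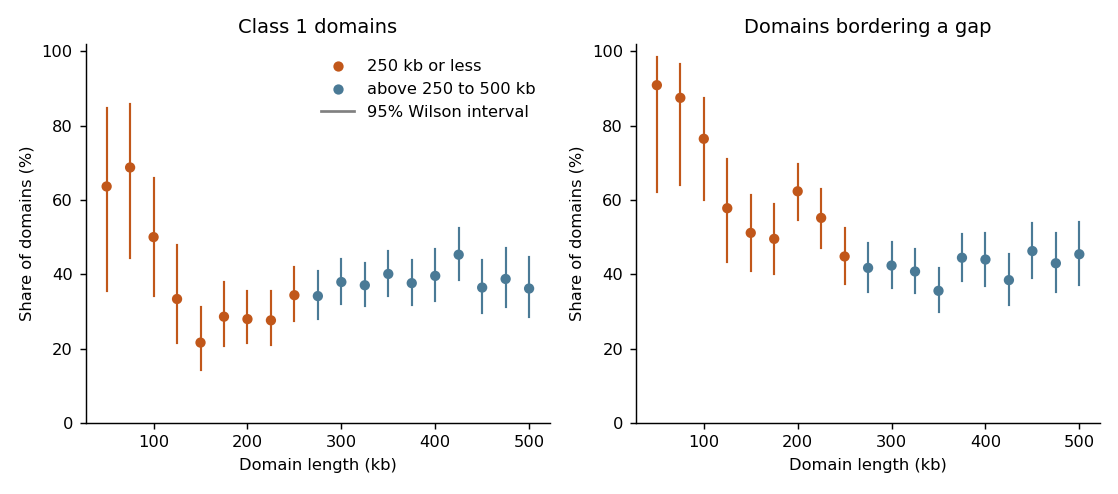
Share of domains in class 1 (left) and share bordering a gap (right), in percent, against domain length in kb. Each point is 1 length step with its 95% Wilson interval, orange for short and blue for medium domains. Class 1 falls from 68.8% at 75 kb to 21.6% at 150 kb, and gap borders fall from 90.9% at 50 kb to 44.8% at 250 kb.

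Short domains had a lower median imbalance score than medium domains and a narrower middle range. The median imbalance score was 0.287 in short and 0.346 in medium domains, lower on 15 of 19 chromosomes (exact sign test, p = 0.0192, adjusted p = 0.0231). Over chromosomes the difference ran from -0.212 to 0.120 with a median of -0.0565. The interquartile range of imbalance was 0.424 in short and 0.460 in medium domains, a ratio of 0.921, and was narrower on 16 of 19 chromosomes (exact sign test, p = 0.00443, adjusted p = 0.00664). By the standard deviation, with 2 infinite scores left out, the ratio was instead 1.21, from 0.444 in short and 0.368 in medium domains, above 1 on 10 of 19 chromosomes and not called (exact sign test, adjusted p = 1). In the 700 domains of 125 to 250 kb the standard deviation was 0.346, so the larger value rested on the 61 domains of 50 to 100 kb, at 0.917. The 10th to 90th percentile range gave 0.965 and was not called either (exact sign test, adjusted p = 0.0763). By exact sign tests the median difference lost its call while growing to -0.114 without domains at a gap (adjusted p = 0.109) and to -0.0791 with short domains taken up to 200 kb (0.431). It also lost its call at -0.0382 against all longer domains (adjusted p = 0.431, exact sign test), at -0.0489 against 250 to 350 kb (0.20) and at -0.0299 by means (0.182). With both sets chosen on tuned length, from the second pair of edges described below, it was -0.0311 and still called (exact sign test, adjusted p = 0.0329). Those sets held 1308 and 1688 domains. The range ratio lost its call with short domains up to 200 kb, against all longer domains and against 250 to 350 kb (exact sign tests, adjusted p = 0.431, 0.0954 and 0.648).

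The imbalance difference score was lower and narrower in short domains taken as a set. Its median was 0.102 in short and 0.142 in medium domains, lower on 17 of 19 chromosomes (exact sign test, p = 0.000729, adjusted p = 0.00175). Its interquartile range was 0.156 against 0.20, a ratio of 0.777, and narrower on 18 of 19 chromosomes (exact sign test, p = 7.63e-05, adjusted p = 0.000229). Without the domains of 50 to 100 kb the median was 0.0998 and the ratio 0.754. In the domains of 50 to 100 kb themselves the interquartile range was 0.285, wider than in medium domains. When both sets were chosen on tuned length, the median difference went from -0.0399 to -0.0222, still called (exact sign test, adjusted p = 0.0133), and the ratio was 0.855 and not called (adjusted p = 0.0954). The median was 0.158 in the domains of 50 to 100 kb, 0.0998 from 125 to 250 kb, 0.142 in medium domains and 0.148 above 500 kb, so it was highest in the shortest set. Per unit of imbalance it was smallest in the shortest domains. The median ratio of imbalance difference to imbalance was 0.271 from 50 to 100 kb, 0.395 from 125 to 250 kb, 0.436 in medium domains and 0.529 above 500 kb. This ratio was a description with no test.

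The cosine score was more widely spread in short domains on every chromosome. Its interquartile range was 0.360 in short domains (quartiles 0.433 and 0.793, n = 759) and 0.268 in medium domains (0.510 and 0.778, n = 2022), a ratio of 1.34. The ratio was above 1 on 19 of 19 chromosomes, from 1.02 to 2.33 with a median of 1.30 (exact sign test, p = 3.81e-06, the smallest that 19 chromosomes can give, adjusted p = 2.29e-05). Without the domains of 50 to 100 kb it was 1.25 and above 1 on 15 chromosomes (exact sign test, adjusted p = 0.0256). Without domains at a gap it was 1.28, above 1 on 11 of 19 chromosomes, and not called (exact sign test, adjusted p = 0.706), and with lengths from tuned edges it was 1.11 (adjusted p = 0.706). The wider range came from the low side. The lower quartile was 0.433 in short and 0.510 in medium domains, while the upper quartiles were 0.793 and 0.778.

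**Figure D3:**
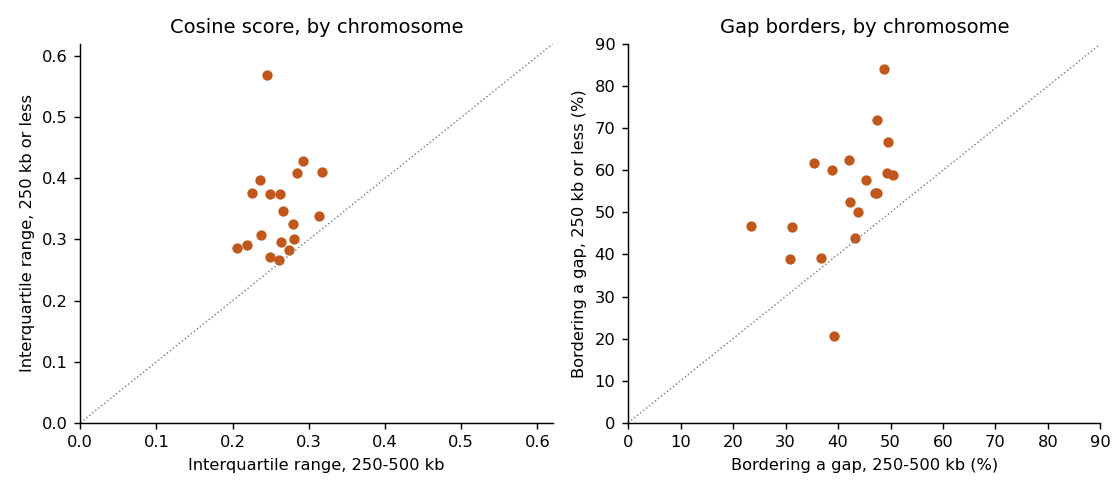
Each point is 1 of 19 chromosomes, with medium domains on the horizontal and short domains on the vertical axis, and the dotted line marks equal values. Left, interquartile range of the cosine score, where all 19 points lie above the line. Right, share of domains bordering a gap in percent, where 18 points lie above the line and chromosome 15 below it.

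Cosine scores were lowest in the shortest domains. The median was 0.316 in the 60 scored domains of 50 to 100 kb and 0.645 in the 699 of 125 to 250 kb. A cosine of exactly 0 was found in 32 short domains of 759, or 4.22% (3.00 to 5.89%), against 16 of 2022 medium domains, or 0.791% (0.488 to 1.28%). In all domains with a cosine the share was 1.16%. Of the 32 short domains at 0, 15 were among the 60 of 50 to 100 kb, and 30 bordered a gap. No domain above 500 kb had a cosine of 0. The median cosine of all short domains was 0.626 against 0.663 in medium domains, lower on 16 of 19 chromosomes (exact sign test, p = 0.00443, adjusted p = 0.00664). That difference of -0.0370 was -0.0180 and not called without the domains of 50 to 100 kb (exact sign test, adjusted p = 1). It was -0.0165 without domains at a gap (exact sign test, adjusted p = 0.706) and -0.0296 against all longer domains (adjusted p = 0.223). It was -0.00478 with short domains taken up to 300 kb (exact sign test, adjusted p = 0.20) and turned to 0.00215 with both sets chosen on tuned length (0.706).

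The probability was narrower in short domains, with an interquartile range of 0.50 against 0.60, narrower on 16 of 19 chromosomes (exact sign test, p = 0.00443, adjusted p = 0.00664). Against domains of 250 to 350 kb this ratio of 0.833 became 0.943 and was not called (exact sign test, adjusted p = 0.0529). The median probability was 0.34 in short and 0.36 in medium domains and did not pass the test, being higher on 8 and lower on 11 chromosomes (exact sign test, p = 0.648, adjusted p = 0.706). The means, 0.382 and 0.426, did differ (exact sign test, adjusted p = 0.00759). In the domains of 50 to 100 kb the median probability was 0.63 (quartiles 0.33 and 0.99), and from 125 to 250 kb it was 0.33 (0.13 and 0.57).

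The highest imbalance scores were most frequent in the domains with the fewest bins, and those of short domains were mostly beside gaps. Of the 42 domains in the highest 1% of imbalance, which begins at 1.68 and is 1.02% of all domains, 18 were short. Of these 18, 11 were of 50 to 100 kb, which is 18.0% of that set (11 of 61, 10.4 to 29.5%), and 7 were of 125 to 250 kb, 1.00% (7 of 700, 0.485 to 2.05%). Medium domains gave 17 of 2022, or 0.841% (0.526 to 1.34%). Of the 18 short domains, 17 bordered a gap, against 55.5% of all short domains. Of the 17 medium domains, 10 bordered no gap, where 41.8% of all medium domains bordered one. Among the domains of 50 to 100 kb with no gap, 0 of 11 were in the highest 1% (0 to 25.9%), an interval that includes the 18.0% of the whole set. In the highest 5%, which begins at 1.15 and is 5.02% of all domains, were 27.9% of the domains of 50 to 100 kb (17 of 61, 18.2 to 40.2%). The share was 3.86% of those of 125 to 250 kb (27 of 700, 2.66 to 5.55%) and 5.34% of medium domains (108 of 2022, 4.44 to 6.41%). Of the domains of 50 to 100 kb with no gap, 1 of 11 was in the highest 5% (1.62 to 37.7%), which again includes the share of the whole set. Over all short domains the share in the highest 5% was 5.78%, which is 0.441 percentage points above that of medium domains (Newcombe interval -1.36 to 2.53). That difference was not called (higher on 10 and lower on 9 chromosomes, exact sign test, p = 1), and it was -1.48 points without the domains of 50 to 100 kb. For the highest 1% the shares were 2.37% of short and 0.841% of medium domains, higher on 11 chromosomes and lower on 3, and not called (exact sign test, adjusted p = 0.0626). The lowest 5% of scores, 5.02% of all domains with values up to 0.0263, held 39 short domains. That was 5.12% of them (3.77 to 6.93%), near the share in all domains. From 50 to 100 kb it held 2 of 61 domains, 3.28% (0.904 to 11.2%).

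An imbalance score of 2 or more was given to 19 domains in the table, of which 12 were short, 2 of these with an infinite score. Among these 12, 8 were of 50 to 100 kb and 11 bordered a gap. The highest finite score, 4.77, belonged to the 50 kb domain chr12:20050001-20100000, of class 1 and direction FALSE, with a cosine of 0, a probability of 1 and a gap of 50 kb on each side. The next, 3.49, was on the 100 kb domain chr4:60525001-60625000, with a gap of 25 kb on one side and 900 kb on the other. The 150 kb domain chr9:80125001-80275000 scored 3.13, the 100 kb domain chr2:177250001-177350000 scored 2.98 and the 100 kb domain chr3:50600001-50700000 scored 2.27. All 5 were in class 1 with a probability of 1, cosines from 0 to 0.0686 and a gap on at least one side. They are also the 5 class 1 short domains of highest probability when ties are ordered by imbalance. The median imbalance of medium domains, 0.346, was far below each of them, and the highest medium score was 2.81.

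The only domains with an imbalance of exactly 0 or of infinity were short. Infinite scores, with neither a cosine nor a probability, were given to the 100 kb domain chr4:60400001-60500000 and the 200 kb domain chr7:32600001-32800000, both in class 0. The first lies 25 kb upstream of the domain of chromosome 4 that scored 3.49. A score of 0 was given to chr7:16075001-16200000 (125 kb), chr8:19850001-19950000 (100 kb), chr14:5975001-6150000 (175 kb) and chr14:7575001-7675000 (100 kb). The first 3 had a cosine of 0 and a probability of 0.39, and the last a cosine of 1 and a probability of 0.01. All 4 were in class 0 with direction FALSE, and all 6 bordered a gap. On chromosome 14 a gap of 1425 kb lay between the pair, and on chromosome 8 the gap downstream was 2125 kb. The next lowest score of a short domain, 0.000138, was on chr5:115400001-115575000, which touched a domain on both sides. How an infinite score or a score of 0 arose was not tested, since contact counts were not used here.

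Among short domains, the highest imbalance difference scores were on domains of 75 and 100 kb. They were 1.10 on chr11:60350001-60425000, 0.981 on chr4:130000001-130075000 and 0.855 on chr5:144500001-144600000, all in class 1 with direction FALSE and all with a gap of 25 kb downstream. In longer domains the score reached 0.972. After the cosine of 1, the highest cosine scores of short domains were 0.979 on chr15:85425001-85550000 and 0.957 on chr19:47425001-47575000, both in class 0 with a probability of 0.00, and the highest in medium domains was 0.961. A cosine of 0 is the lowest, and the first 3 of the 32 short domains at 0, by position, were chr1:85050001-85250000, chr2:174825001-175025000 and chr2:177050001-177200000. The first lay beside a gap of 2075 kb. Those on chromosome 2 lay on either side of the same gap of 2025 kb, and the last of them was in class 1.

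Across short domains, the length step held a small part of the spread of each score, and that part was smaller without the shortest steps. The length step held 12.2% of the variance of imbalance over the 759 short domains with a finite score, where 9 steps would give about 1.06% by their number alone. Over the 699 domains of 125 to 250 kb it held 0.646%, against 0.716% from the number of steps. The shares of variance were 10.5% over all short domains and 1.69% from 125 to 250 kb for the cosine, 7.28% and 1.89% for the imbalance difference, and 4.47% and 0.242% for the probability. In ranks, which the tails move less, the same pairs of shares were 5.34% and 1.59% for imbalance, 8.02% and 1.33% for the cosine, 3.76% and 2.02% for the imbalance difference, and 4.14% and 0.252% for the probability. Across domains, the bin number difference had a Spearman coefficient of -0.00437 with imbalance and of -0.0877 with the distance of imbalance from its median (n = 759). Its coefficients with the cosine and with the distance of the cosine from its median were 0.172 and -0.207. From 125 to 250 kb the same 4 coefficients were 0.108, 0.00318, 0.0568 and -0.152 (n = 699). Domains share the table, the pooled libraries and the scoring, so these coefficients describe the table and carry no p-value. The contacts behind each domain were not used here, and the part of the bin number in the extreme scores was not tested.

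Gaps, stretches of sequence in no domain, lay beside short domains more often than beside medium ones. A gap on at least one side was found at 422 of 761 short domains, 55.5% (51.9 to 58.9%), at 846 of 2022 medium domains, 41.8% (39.7 to 44.0%), and at 41.9% of all domains. The difference of 13.6 percentage points (Newcombe interval 9.46 to 17.7) was positive on 18 of 19 chromosomes (exact sign test, p = 7.63e-05, adjusted p = 0.000229). Chromosome 15 went the other way, with 20.7% of short and 39.2% of medium domains at a gap. The widest difference was on chromosome 5, with 84.1% and 48.7%. Counting only gaps of 100 kb or more, the shares were 37.1 and 31.2%, and the difference of 5.85 points was not called (exact sign test, adjusted p = 0.0763). It was 8.63 points with short domains taken up to 300 kb and 8.69 points with both sets chosen on tuned length, both called (exact sign tests, adjusted p = 0.000458).

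By length, the share at a gap was 90.9% at 50 kb (10 of 11), 87.5% at 75 kb (14 of 16), 76.5% at 100 kb (26 of 34) and 57.8% at 125 kb (26 of 45). It was 62.3% at 200 kb (96 of 154) and 44.8% at 250 kb (73 of 163). Gaps lay on both sides of 15.1% of short domains (12.7 to 17.8%), against 7.12% (6.08 to 8.33%) of medium domains, and 21 of the 61 domains of 50 to 100 kb, 34.4% (23.7 to 47.0%). The gaps themselves were alike in typical size. The 444 gaps with a short domain on a side had a median of 125 kb (quartiles 75 and 225 kb) and the 577 others one of 125 kb (75 and 200 kb). The 93 gaps with short domains on both sides had a median of 100 kb, and the 67 beside a domain of 50 to 100 kb one of 50 kb. Very long gaps were another matter, since 31 of the 52 gaps above 500 kb had a short domain on a side. The longest, 7025 kb at chr7:39350001-46375000, lay between short domains of 150 and 200 kb.

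Scores of short domains differed with the number of gaps beside them. The median imbalance was 0.228 in the 339 short domains with no gap, 0.308 in the 307 with 1 and 0.453 in those with 2. The share of class 1 was 25.4% (21.0 to 30.3%), 32.6% (27.6 to 38.0%) and 45.2% (36.4 to 54.3%) in the same order. In medium domains the median imbalance was 0.343, 0.356 and 0.355 and the class 1 share 36.0, 41.2 and 43.1%. Gap and length go together, so the same was read within 125 to 250 kb, where the median length was 200 kb in each of the 3 gap groups. There the median imbalance was 0.226, 0.303 and 0.378 and the class 1 share 24.7% (20.3 to 29.6%), 30.6% (25.5 to 36.2%) and 39.4% (30.1 to 49.5%). Within 50 to 100 kb the medians were 0.426 (n = 11), 0.430 (n = 29) and 0.974 (n = 21). Whether these steps with gap number differ between short and medium domains was not tested. Of the 44 short domains in the highest 5% of imbalance, 32 were at a gap, 72.7%, against 55.5% of all short domains. Length is mixed into this count. No gap lay beside 1 of the 17 of 50 to 100 kb and 11 of the 27 of 125 to 250 kb. Of the 108 medium domains in the highest 5%, 60 bordered no gap.

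Short domains were spread over all 19 chromosomes at a density of 0.315 per Mb (95% exact Poisson interval 0.293 to 0.339, over the sequence between each chromosome's first and last edges). Their share of a chromosome's domains ran from 9.04% on chromosome 16 (15 of 166, interval 5.55 to 14.4%) to 24.0% on chromosome 7 (64 of 267, 19.2 to 29.4%), with a median of 17.7%. Per Mb, chromosome 9 was the densest with 52 domains and 0.430 per Mb (0.321 to 0.563), followed within its interval by chromosome 11 at 0.429 and chromosome 7 at 0.428. Chromosome 16 was the sparsest at 0.158 per Mb (0.0884 to 0.261). The intervals of neighbouring chromosomes in this order overlap. Domains of 50 to 100 kb occurred on 18 chromosomes, with none on chromosome 16 and at most 9, on chromosome 7. Length was the rule that chose the domains, so counts by chromosome and all counts of neighbours below are descriptions without a test.

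**Figure D4:**
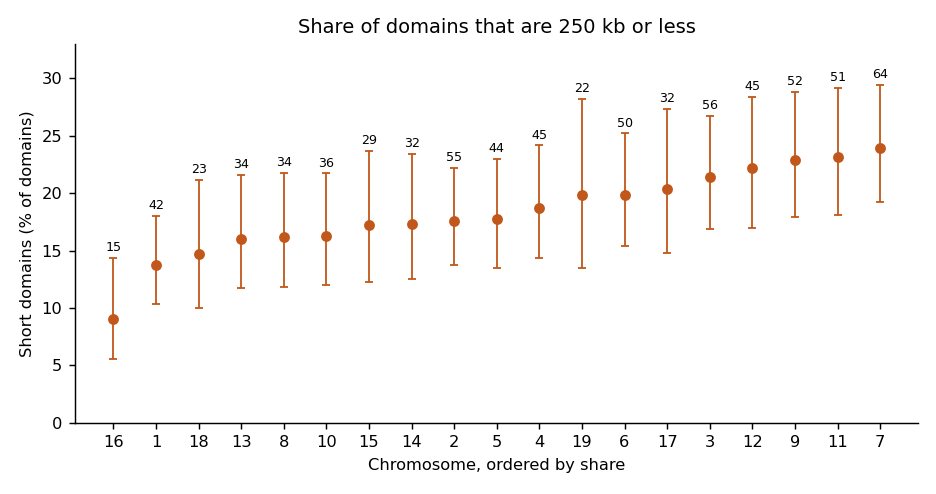
Short domains as a percentage of all domains of a chromosome (vertical axis), with chromosomes ordered by that share (horizontal axis). Points are shares, bars their 95% Wilson intervals and the digits over them the number of short domains. Shares run from 9.04% on chromosome 16 to 24.0% on chromosome 7, and neighbours in the order overlap.

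Most short domains stood alone between longer ones. Of 665 runs of short domains that touched, 583 were a single domain, 69 a pair, 12 a run of 3 and 1 a run of 4. Runs of 2 or more held 178 short domains, 23.4% of them. Of the 964 neighbours that touched a short domain, 192 were short as well, 19.9% (17.5 to 22.6%). Of those that touched a medium domain the share was 15.9% (14.6 to 17.2%), above 500 kb it was 13.3% (12.0 to 14.8%), and around all domains it was 15.6%. This excess of 4.01 percentage points over medium domains was positive on 9 chromosomes and negative on 10. With the next domain in order counted, touching or not, the shares were 25.2 and 18.4%, higher on 13 of 19 chromosomes. By that count 322 short domains, 42.3%, lay in runs of 2 or more. Around the domains of 50 to 100 kb, 17 of 46 touching neighbours were short, 37.0% (24.5 to 51.4%). The median length of a touching neighbour was 375 kb beside short and 400 kb beside medium domains. Among these neighbours 37.8% (364 of 964, 34.8 to 40.9%) were in class 1 beside short domains and 32.9% (31.2 to 34.6%) beside medium ones, a difference that was not tested.

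The distance from a short domain to the nearest other had a median of 450 kb (quartiles 25 and 1550 kb), and 65.3% of short domains (61.9 to 68.6%) had another within 1 Mb. From a medium domain to the nearest short one the median was 738 kb and the share within 1 Mb was 57.1% (55.0 to 59.3%). Of the 2425 intervals of 1 Mb spanned by the table, 601 held the midpoint of a short domain. Of these, 473 held 1, 100 held 2, 24 held 3 and 4 held 4. The 4 fullest were chromosome 4 at 141 to 142 Mb (1 of 4 in class 1), chromosome 7 at 66 to 67 Mb (2 of 4), chromosome 9 at 108 to 109 Mb (4 of 4) and chromosome 17 at 7 to 8 Mb (2 of 4). In the first 3, all domains with a midpoint in the interval were short. The next by position, chromosome 1 at 136 to 137 Mb, held 3 short domains of 4.

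The longest run that touched was chr3:95425001-96250000, with 4 domains of 200, 250, 175 and 200 kb. All 4 were in class 0, with imbalance scores from 0.123 to 0.293, cosines from 0.580 to 0.873 and probabilities from 0.00 to 0.15. Its directions alternated as TRUE, FALSE, TRUE and FALSE. After it, 12 runs tied at 3 domains, and the 4 of smallest summed length are described. The first of these, chr9:108900001-109250000, was unlike the run of 4, with domains of 125, 175 and 50 kb that were all in class 1. Their imbalance scores were 0.536, 1.03 and 1.21, their cosines 0.667, 0.165 and 0, and their probabilities 0.87, 1 and 1. In the runs chr17:7275001-7675000, chr3:33700001-34125000 and chr15:38200001-38700000, 1 of 3 domains was in class 1. That domain was the longest of its run on chromosome 17, where it scored 0.786 at 250 kb beside 0.125 and 0.291 at 75 kb. It was the shortest on chromosomes 3 and 15, where it scored 0.939 and 0.723 at 100 kb beside scores from 0.0966 to 0.280 at 150 to 250 kb. With gaps allowed, the longest series of short domains was chr9:107250001-109250000. It held 8 domains of 200, 225, 250, 75, 50, 125, 175 and 50 kb, 6 of them in class 1, with imbalance scores from 0.0260 to 1.61. This series was chosen after its values were seen.

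The shortest domains, of 50 kb, were 11, of which 7 were in class 1. In order of position the first 5 had imbalance scores of 2.13 on chr2:58950001-59000000, 1.03 on chr5:139150001-139200000, 0.129 on chr7:32525001-32575000, 0.192 on chr9:6825001-6875000 and 0.999 on chr9:108800001-108850000. Those scoring 0.129 and 0.192 were in class 0 and the others in class 1. Over all 11, which had equal length and bin number difference, the scores ran from 0.0543 to 4.77. Of these, 3 were in the highest 1% of all domains and 0 in the lowest 5%. Of the 11, 4 had a cosine of 0.

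Tuned edges, a second pair on a grid of 10 kb, made most short domains shorter. No source used here states how the tuning was done. The median tuned length was 140 kb in short domains (quartiles 110 and 180 kb) and 300 kb in medium ones. The edges together moved inward by a median of 50 kb in short, 70 kb in medium and 60 kb in longer domains. The tuned length was thus a median of 73.3% of the domain in short domains (quartiles 64.0 and 85.0%) and 82.4% in medium ones. This share has the length that chose the domains as its denominator, so no p-value is given for it. An edge could move outward by up to 45 kb, in short and medium domains alike. In short domains this was large beside the domain itself. At least one tuned edge lay outside the domain in 180 of 761 short domains, 23.7% (20.8 to 26.8%), and in 11.3% (10.0 to 12.8%) of medium ones. In the domains of 50 to 100 kb this was 43 of 61, 70.5% (58.1 to 80.4%). The tuned length exceeded the domain length in 78 short domains, 10.2% (8.29 to 12.6%), against 3.31% (2.62 to 4.19%) of medium ones.

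**Figure D5:**
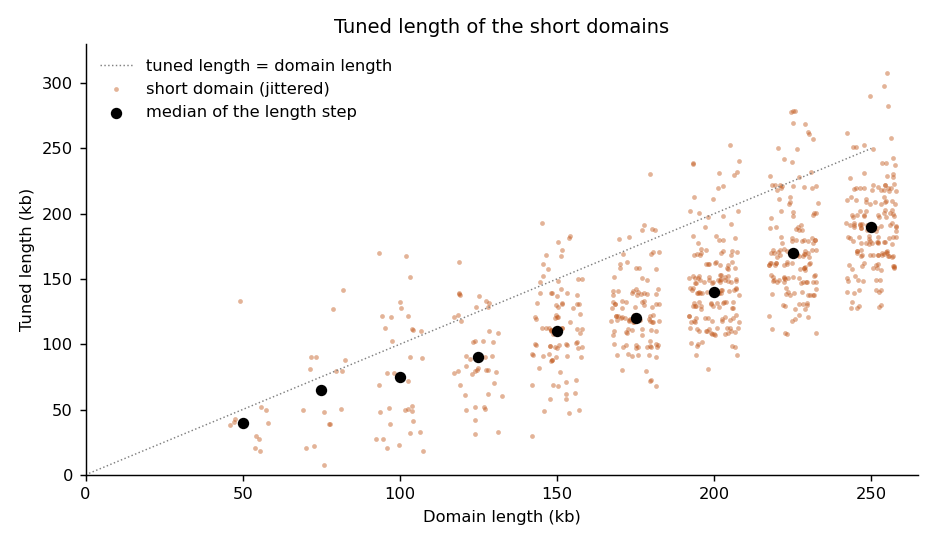
Tuned length in kb (vertical axis) against domain length in kb (horizontal axis) for the 761 short domains. Small points are single domains, spread slightly for visibility, black points are medians by length step and the dotted line marks equal lengths. Medians rise from 40 kb at 50 kb to 190 kb at 250 kb, and 78 domains lie above the line.

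In 3 short domains of 50 kb the tuned interval did not overlap the domain at all, and no other domain of the table showed this. These were chr2:58950001-59000000 with a tuned interval of 58910001 to 58950000, chr5:139150001-139200000 with 139110001 to 139150000 and chr13:22950001-23000000 with 22920001 to 22950000. Each had direction TRUE and a tuned interval that ended at the domain's start. Tuned lengths ran from 10 to 170 kb in the domains of 50 to 100 kb and from 30 to 310 kb in those of 125 to 250 kb.

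The tuned edges of short class 1 domains were placed differently by direction. In the 123 short class 1 domains of direction TRUE, the tuned start lay 8.50 kb inside the domain on average (SE over domains 2.73) and the tuned end 32.7 kb inside (SE 2.32). In those of direction FALSE, the start lay 26.5 kb inside (SE 2.60), further than the end at 9.57 kb (SE 2.59). Start shift less end shift averaged -24.2 kb in the former and 16.9 kb in the latter, a contrast of -41.1 kb (SE 4.88). In medium class 1 domains this contrast was -14.9 kb (SE 2.28), and in short class 0 domains -11.1 kb (SE 2.81). Among the class 1 domains of 50 to 100 kb it was -71.3 kb (SE 15.4, 18 TRUE and 17 FALSE), and among the class 0 domains of that length it had the other sign, at 11 kb with a larger error (SE 18.0, 15 TRUE and 11 FALSE). In the class 1 domains of 50 to 100 kb, the tuned start of TRUE domains lay 18.1 kb outside the domain (mean shift -18.1 kb, SE 6.15). The tuned end of FALSE domains of that class and length lay 9.12 kb outside (mean shift -9.12 kb, SE 7.24). Standard errors treat domains as units, and the differences between short and medium domains were not tested.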

How the data were processed

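The authors' deposited table, 1 for all 3 libraries, was used as given. The deposited table's name lists TopDom, a quantile threshold of 0.98 and a random forest at 0.5. It does not say to which step the quantile threshold belongs. The build was mm9, and the submitters' processing notes list Juicer and BWA without a version. Imbalance, imbalance difference and cosine are deposited scores of the authors, and probability is a deposited fraction in steps of 0.01. Starts are written counting from 1.

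Short domains and the lists described here were chosen with earlier results of these data known. Computed here were lengths, bin number differences, gaps, runs, medians, quartiles and shares (Python 3.11.15, pandas 2.3.3, scipy 1.17.1, statsmodels 0.14.6). Quantiles kept infinite scores, and means and standard deviations left them out. Values computed within each of 19 chromosomes were compared by exact two-sided sign tests, with Benjamini-Hochberg adjustment over 12 tests and a threshold of 0.05. The share of the length kept after tuning is one of the 12 but is only described, since length chose the domains. Chromosomes share the libraries, so p-values measure how alike chromosomes were, not between embryos or libraries. The test was tested on simulated data. These were independent normal values, whereas the imbalance scores are skewed, so they cannot show how the test behaves on the deposited scores. Alternatives changed the length limits, the comparison set, the spread measure, the tail, the gap size, the domains kept and the edges used, and left out each chromosome. Regions named are the 5 short domains of highest and of lowest imbalance and of highest class 1 probability, the first 5 of the smallest length, the 5 runs of most touching domains (ties by smallest summed length), the 5 fullest intervals, the 3 highest and lowest imbalance differences and cosines, and the densest and sparsest chromosomes. Gene and sequence tables of build mm9 were not used here, so no gene is named and no sequence printed.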

Additional observations from a re-analysis of the deposited data

How the results depend on the processing

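No paired analysis was possible because the libraries of the single group are pooled, and no library could be left out. Of 366 alternative values, 334 were counted as unchanged, 23 were no longer called, 1 became called and 8 changed sign. For tested results, unchanged meant the same direction and the same side of the threshold. The share of touching neighbours has no test. There, unchanged meant the same direction and a value inside the Newcombe interval of the 4.01 point difference. Leaving out each of the 19 chromosomes changed 1 of 247 values, the difference in the highest 5% of imbalance, which was never called and was -0.0928 points without chromosome 4.

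By exact sign tests with adjusted p above 0.05, the difference in median imbalance score was -0.0791 with short domains up to 200 kb. Likewise, it was -0.0382 against all longer domains, -0.0489 against 250 to 350 kb, -0.114 without domains at a gap and -0.0299 by means. The range ratio of the imbalance score was 0.951, 0.944 and 0.957 under the first 3 of these settings. It was 0.965 by the 10th to 90th percentile range and 1.21, a change of sign, by the standard deviation. The range ratio of the imbalance difference score was 0.855 with tuned edges. The median cosine difference was -0.00478 with short domains up to 300 kb, -0.0296 against all longer domains, -0.0180 without domains up to 100 kb, -0.0165 without domains at a gap, -0.0369 without first and last domains and, reversed, 0.00215 with tuned edges. The cosine range ratio was 1.28 without domains at a gap and 1.11 with tuned edges. The probability range ratio was 0.943 against 250 to 350 kb, and mean probability differed by -0.0443, called. The gap difference was 5.85 points for gaps of 100 kb or more. The highest 5% difference was -0.676 with short domains up to 300 kb, -1.48 without domains up to 100 kb, -1.56 without domains at a gap, -0.861 for the highest 10% and -0.590 with tuned edges. The class 1 difference was -6.93, -5.78, -4.71 and -6.11 points with limits of 200 and 300 kb, against all longer domains and against 250 to 350 kb. Leaving out domains leaves fewer per chromosome, and other causes were not tested.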

Other observations

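The outermost domains of chromosomes were often short. Of the 19 domains that come first on their chromosome, 13 were short, 68.4% (95% Wilson interval 46.0 to 84.6%), and of the 19 that come last, 8 were, 42.1% (23.1 to 63.7%). Together these were 21 of 38, 55.3% (39.7 to 69.9%), against 18.5% of all domains. The first edge was at 3 Mb on 12 chromosomes, and on 8 of these it belonged to a short domain. The 21 short end domains were 75 to 250 kb long, 9 were in class 1, and their imbalance scores ran from 0.00213 to 1.36 with a median of 0.426. Why the outermost domains were short was not tested.

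Short domains beside very long gaps differed from other short domains in cosine more than in class. The 35 short domains next to a gap above 500 kb had a median cosine of 0.400 with an interquartile range of 0.814, against 0.629 and 0.349 in the 726 others. A cosine of 0 was found in 10 of the 35 and in 22 of the others, and 3 of the 4 domains with an imbalance of 0 were among the 35. Class 1 held 12 of the 35, 34.3% (20.8 to 50.8%), and 31.1% (27.9 to 34.6%) of the others. The median imbalance score was 0.410 in the 35 and 0.285 in the others. Direction was TRUE in 34.3% of the 35 and 51.1% of the others. Gaps lay on both sides of 24 of the 35 and of 91 of the 726 others. The number of gaps and their length were therefore not separated here. In the 47 medium domains next to such a gap the interquartile range of the cosine was 0.493, against 0.265 in the other 1975. These differences were not tested.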
